A study of Mus musculus with 9 samples.

Results

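The genes of fatty acid uptake and oxidation examined here were 39 of the 55335 genes in the count table, chosen because their symbols stand on a list of genes for taking up, releasing, activating and burning fatty acids and for regulating that work. Each symbol matched 1 gene, and all 39 were kept by the filter on low counts, as were 18259 genes in all. The series holds RNA-seq of leg muscles from 9 WT mice, of a strain that the labels spell c57b6l. Every mouse had gone through a hindlimb injury model that the labels describe as suspension and ischemia. The group given aspirin with hydrogel (3 mice) had a peptide hydrogel combined with aspirin, the aspirin group (3 mice) had aspirin, and the control group (3 mice) had the injury with no treatment. Aspirin blocks the cyclooxygenases that make prostaglandins. The labels name no sex, age, dose, route or time after injury, so none of these can be set beside a result, and uninjured muscle and hydrogel without aspirin were not analysed here.

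Long-chain fatty acids reach muscle fibres from circulating triglyceride, cut by lipoprotein lipase, or from droplets stored inside the fibre, cut by lipases there. They are bound to coenzyme A, carried into mitochondria as carnitine esters, and shortened in repeated rounds of dehydrogenation, hydration, a further dehydrogenation and thiolysis, whose electrons enter the respiratory chain. Slow and oxidative fibres depend on this supply, and the nuclear receptors of the PPAR family, with the coactivator PGC-1alpha and the receptor ERRalpha, switch many of its genes on together.

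Levels below are CPM, the read count scaled to library size with TMM factors (which correct for differences in RNA makeup), unless FPKM, a level also divided by transcript length, is named. Libraries of the group given aspirin with hydrogel are called hydrogel libraries. Total counts ran from 32197791 to 48170537 per library, and the TMM factors from 0.688 in Hydrogel replicate 3 to 1.63 in Aspirin replicate 1. Aspirin replicate 1 stood apart: with 51.9% of the variance over 14572 genes on the first principal component, it lay there at 152 and the other 8 libraries between -101 and 49.2. The 10 skeletal muscle markers, all detected, summed to 12764 CPM in it and to 48564 to 149705 CPM in the others. It was also the library with the lowest level for 29 of the 39 genes, while Control replicate 2 had the highest for 22. The fold changes and counts that the aspirin comparisons turn on are therefore given with and without that library. Sample names also carry a code of unknown meaning that differs between the groups, and within the aspirin group between replicate 3 and replicates 1 and 2. A batch marked by it cannot be told apart from treatment. Replicate 3 of the aspirin group also lay below its other 2 libraries in Cd36, Angptl4 and Plin2 (values given with those genes), and the part of the code in this was not tested. The labels do not say more of how the 3 mice of a group relate, so p-values measure the spread between these samples.

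Between genes, levels were compared per transcript length. Fabp3, which encodes the fatty acid binding protein of heart and muscle, had the highest mean over all libraries, 151 FPKM. It was followed by Cd36 (the fatty acid translocase) at 95.6 FPKM, Lpl (lipoprotein lipase) at 88.9, Acadl (long-chain acyl-CoA dehydrogenase) at 88.1 and Etfb (an electron carrier subunit) at 82.3. In the control libraries alone Fabp3 stood at 188 ± 26.5 FPKM (SD, n = 3), Lpl at 121 ± 35.5, Acadl at 110.5 ± 3.16, Cd36 at 106 ± 29.0 and Pnpla2 at 103 ± 30.2, and the last 4 lay within their spread of one another. The receptors and their coactivator were at the low end, with Esrra (ERRalpha) at 9.23 ± 1.26 FPKM, Ppargc1a (PGC-1alpha) at 4.15 ± 1.37, Ppard at 1.97 ± 0.721 and Ppara at 0.904 ± 0.214. Cpt1b, the muscle form of the enzyme that makes carnitine esters, stood at 54.7 ± 4.14 FPKM and Cpt1a, the form of liver and many other tissues, at 3.83 ± 1.88.

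**Figure D1:**
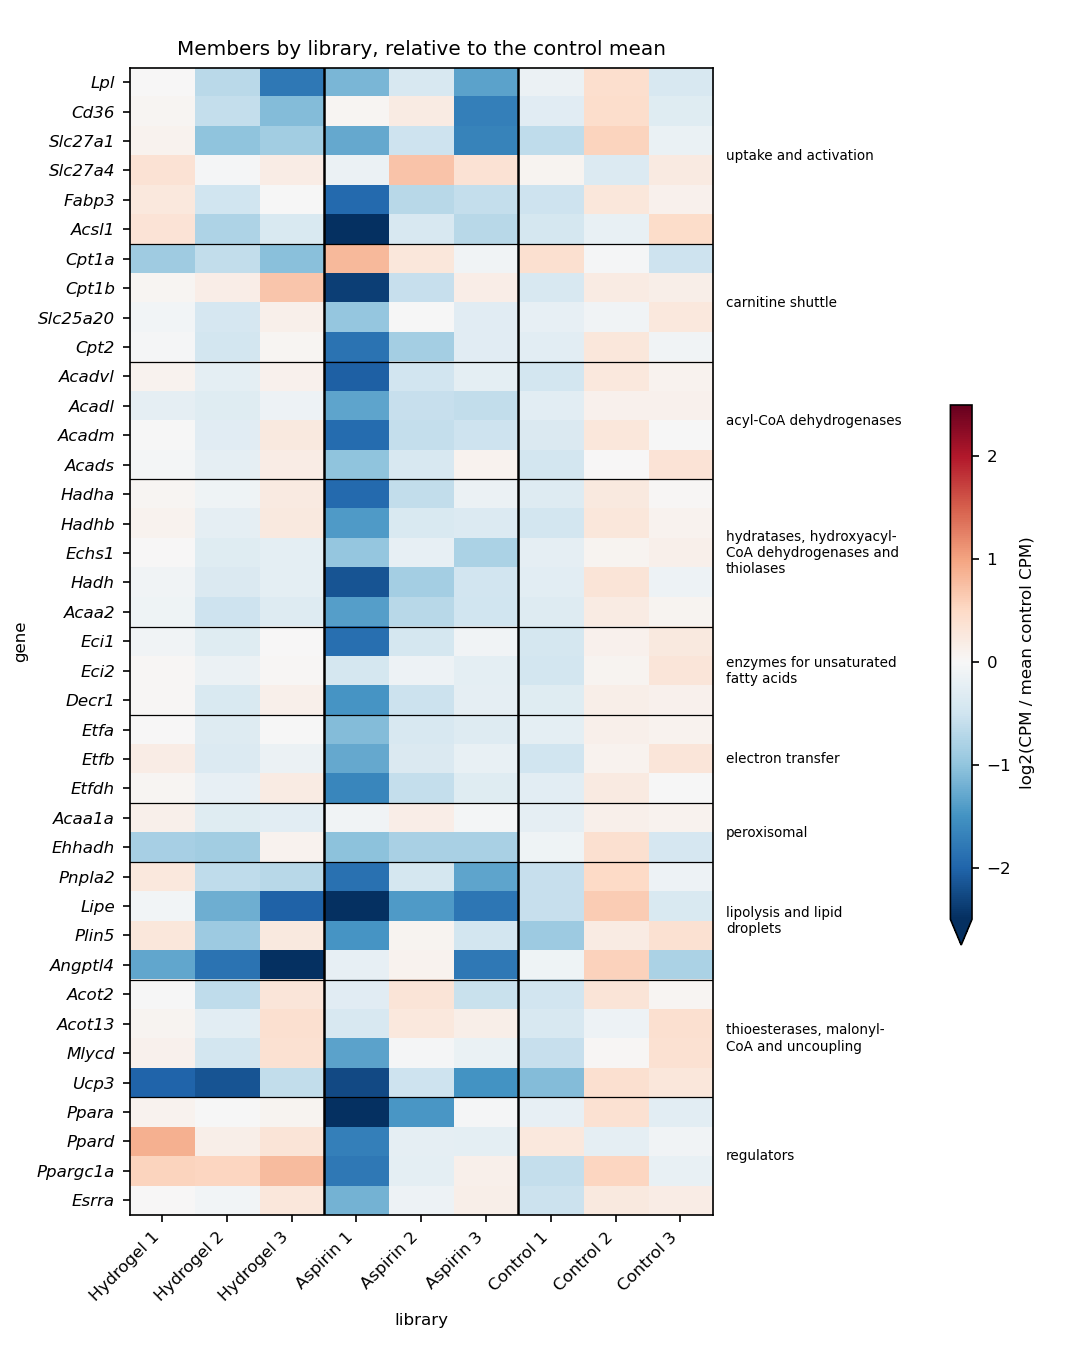
Level of each of the 39 genes in each library as log2 of its CPM over the mean of the 3 control libraries (colour, red higher and blue lower, values past the end of the scale drawn in the darkest blue), with genes in rows by role and libraries in columns by group. Aspirin replicate 1 is the darkest column, and the rows of Angptl4 and Cpt1a are blue in all 3 hydrogel libraries.

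The genes differed in how far they varied between libraries. The ratio of the highest to the lowest CPM over the 9 libraries was smallest for Acaa1a, a peroxisomal thiolase, at 1.37, and largest for Ppara, at 14.4. Without Aspirin replicate 1 the widest ratios were those of Angptl4 (9.60), Lipe (6.33), Ucp3 (5.90), Slc27a1 (4.66), Lpl (4.62) and Cd36 (4.46), which act in lipoprotein or droplet lipolysis, uptake and uncoupling. For 15 enzymes and electron carriers of the mitochondrial cycle (Acadvl, Acadl, Acadm, Acads, Hadha, Hadhb, Echs1, Hadh, Acaa2, Eci1, Eci2, Decr1, Etfa, Etfb and Etfdh) the same ratio ran from 1.45 for Etfa to 2.26 for Hadh. Part of the counts of some genes is uncertain: Cpt1b shares 81.4% of its exonic bases on the same strand with Gm44502, which averaged 4.63 CPM by total count where Cpt1b averaged 185, and Etfb shares 53.0% with Gm45233, at 0.369 where Etfb averaged 105. Acadvl overlaps Dvl2 on the opposite strand over 42.9% of its exonic bases, and Acot2 and Acaa1a have the near-identical copies Acot1 and Acaa1b, between which reads can be split.

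Aspirin with hydrogel was set against control to ask what the combined treatment changed after the injury. Most of the 39 genes stood close to the control level, and the genes that stood furthest below it were Angptl4, Ucp3, Lipe and Cpt1a. The enzymes of the mitochondrial cycle lay near control. The 4 regulators were a little higher, with wide intervals. None of these differences passed the threshold over all genes.

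By count, 27 of 39 genes had a negative log2 fold change where 52.9% of all genes did, and the median was -0.09 against -0.03 over all genes. That count was 15 without Hydrogel replicate 2 and 35 without Control replicate 1, so it rests on single libraries. In edgeR's quasi-likelihood test 0 of 39 passed an adjusted p of 0.05, where 0.0% of all genes did, and in DESeq2 0 of 39, where 0.0986% did. At an unadjusted p under 0.05 in edgeR, 3 genes were lower (2.18% of all genes) and 0 higher (1.74%). Every hydrogel library lay below every control library for 2 genes, Angptl4 and Cpt1a (6.3% of all genes), and above for 0 (6.85%).

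Angptl4 encodes a secreted inhibitor of lipoprotein lipase and is a classical PPAR target (chromosome 17, 33773750 to 33781830, minus strand of mm10). Its level was 25.3, 17.3 and 9.71 CPM in the hydrogel libraries, 54.0, 66.3 and 18.1 in the aspirin libraries and 57.5, 93.3 and 36.0 in the controls. All 3 hydrogel libraries lay below all 3 controls, and the aspirin libraries overlapped both groups. The log2 fold change of hydrogel against control was -1.83 ± 0.56 (SE, n = 3 per group; 95% interval -3.09 to -0.58), with an unadjusted p of 0.00926 and an adjusted p of 0.987 in edgeR. Leaving out any library of the 2 groups gave -2.20 to -1.44, with unadjusted p-values from 0.00641 to 0.0359 in edgeR.

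Cpt1a (chromosome 19, 3322334 to 3385733, plus strand) had 16.6, 19.98 and 14.8 CPM in the hydrogel libraries, 53.9, 37.2 and 28.6 in the aspirin libraries and 40.6, 30.02 and 21.3 in the controls. It was lowest in the hydrogel group, with no overlap with either other group. Against control the log2 fold change was -0.84 ± 0.31 (95% interval -1.54 to -0.14; unadjusted p = 0.0237, adjusted p = 0.987 in edgeR). It was -0.58 without Control replicate 1, and the unadjusted p in edgeR was 0.103 without that library, 0.0611 without Hydrogel replicate 1 and 0.0755 without Hydrogel replicate 3.

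Ucp3, the uncoupling protein of muscle mitochondria, which rises when fatty acids are plentiful (chromosome 7, 100472990 to 100486432, plus strand), had 46.2, 41.1 and 121 CPM in the hydrogel libraries, 38.4, 129 and 65.6 in the aspirin libraries and 86.6, 242 and 223 in the controls. Hydrogel replicate 3 lay above Control replicate 1, so the groups overlapped, and 2 of the 3 control libraries were far above the rest. The log2 fold change of Ucp3 was -1.41 ± 0.60 in aspirin with hydrogel against control (95% interval -2.78 to -0.04; unadjusted p = 0.0447, adjusted p = 0.987 in edgeR) and -1.25 ± 0.60 in aspirin against control (unadjusted p = 0.0682, adjusted p = 0.753 in edgeR), the second being -0.92 without Aspirin replicate 1. Without single libraries of the first comparison it ran from -2.09 without Hydrogel replicate 3 to -1.13 without Hydrogel replicate 2, and the unadjusted p in edgeR was between 0.110 and 0.136 without Control replicate 2 or 3 or Hydrogel replicate 1 or 2.

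**Figure D2:**
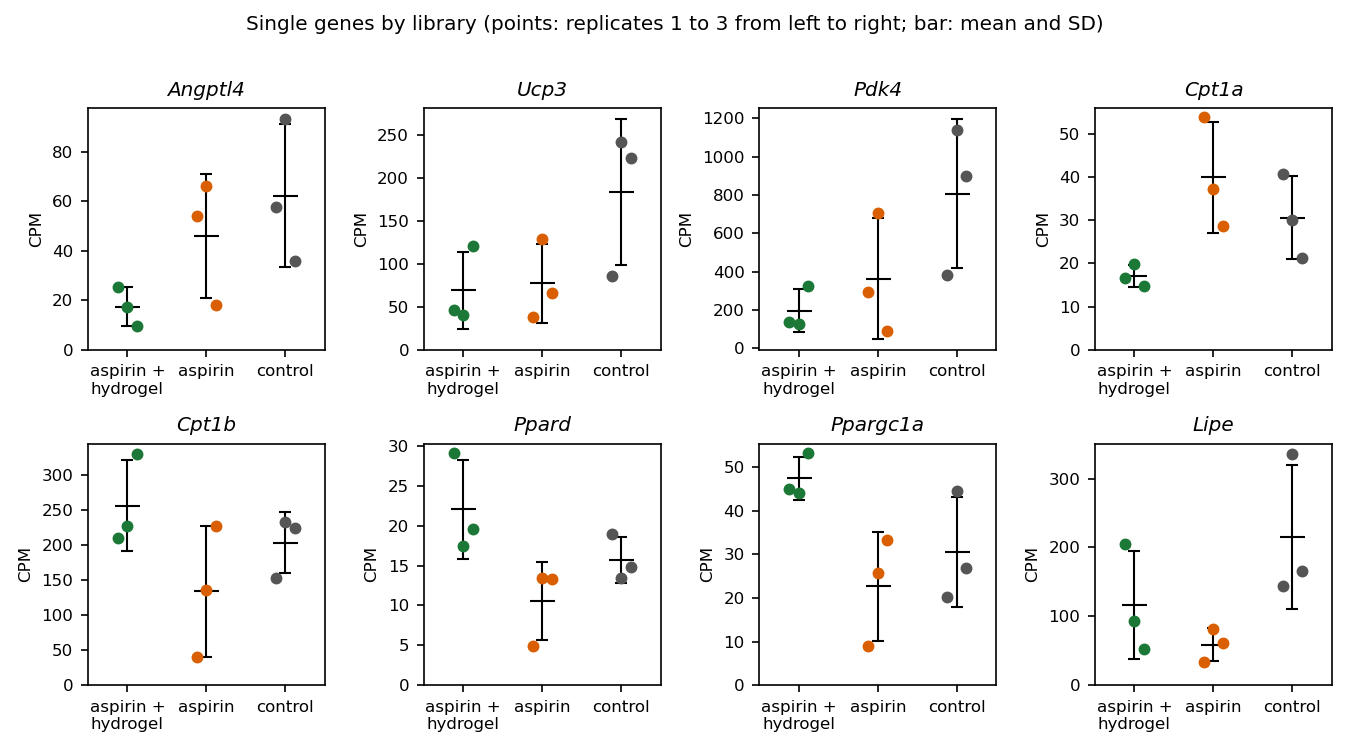
CPM of 8 genes (Pdk4 is no member but a PPAR target) in each library of the 3 groups, with points for replicates 1 to 3 and bars for the mean and SD of 3 libraries. The means of Angptl4 and Cpt1a are lowest in aspirin with hydrogel. Lipe is below every control in all 3 aspirin libraries and in Hydrogel replicates 2 and 3. Ppard and Ppargc1a are higher in every hydrogel library than in every aspirin library.

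Promoter windows (250 bases before to 50 after a RefSeq start, GRCm38.p6) were found for 33 of the 39 genes and searched for nuclear receptor elements. The hexamer AGGTCA, read by many nuclear receptors, was present on either strand in 7 of the 33 (Acadm, Acadvl, Cd36, Cpt1a, Echs1, Plin5 and Ucp3), a share of 21.2% where 18.1% of 27025 genes had it. The ERR element, the hexamer with TCA before it, was in 0 of 33 windows where 0.466% of genes had it. A direct repeat of the hexamer with 1 base between the copies, the element of PPAR with RXR, was in 0 of 33 (0.0481% of genes), also with up to 1 mismatch (0.644%). Of the genes furthest below control after aspirin with hydrogel, Angptl4 had no window and was not searched, and neither window of Lipe held the hexamer. The bases upstream of Cpt1a and Ucp3 are shown because both were among those genes and carry the hexamer before their RefSeq start. Capitals mark it, read on the opposite strand in Cpt1a. The Cpt1a stretch is chr19:3323051-3323284 and the Ucp3 stretch chr7:100472741-100472989, each on the plus strand, ending just before a GENCODE exon. The GENCODE gene Cpt1a begins further upstream, at 3322334, with the first exon of another transcript, so the Cpt1a stretch lies within the annotated gene, in an intron of that transcript.
Cpt1a: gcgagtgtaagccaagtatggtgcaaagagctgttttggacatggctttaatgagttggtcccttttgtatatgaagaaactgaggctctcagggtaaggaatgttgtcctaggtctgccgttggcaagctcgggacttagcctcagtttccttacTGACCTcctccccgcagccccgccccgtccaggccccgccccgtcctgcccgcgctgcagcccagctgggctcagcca
Ucp3: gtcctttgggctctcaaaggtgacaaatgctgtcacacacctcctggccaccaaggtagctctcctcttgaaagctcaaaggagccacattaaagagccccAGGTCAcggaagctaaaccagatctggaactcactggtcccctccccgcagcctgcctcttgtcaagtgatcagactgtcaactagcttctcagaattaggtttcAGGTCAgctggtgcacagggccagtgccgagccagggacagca
The Cpt1a stretch has 1 copy, 94 to 89 bases before the start, and the Ucp3 stretch has 2, at 149 to 144 and 44 to 39 bases before it.

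In the other roles, uptake and activation genes had a negative log2 fold change in 5 of 6 against control, with a median of -0.33. Lpl had 1388, 868 and 399 CPM in the hydrogel libraries and 1248, 1843 and 1045 CPM in the controls, and Hydrogel replicate 1 lay among the controls. The lipases of the droplet were spread in the same way. Lipe (hormone-sensitive lipase) had 205, 92.5 and 53.0 CPM in the hydrogel libraries and 144, 335 and 166 CPM in the controls, a log2 fold change of -0.88 ± 0.56 (unadjusted p = 0.150, adjusted p = 0.987 in edgeR). These genes also work in fat cells. The 8 adipocyte markers summed to 3394, 1694 and 669 CPM in the hydrogel libraries and to 2707, 4218 and 2814 CPM in the controls, and 8 of 8 had a negative log2 fold change (median -0.76). None of the 8 was at 0 in any library. In bulk tissue fewer cells of a type and less RNA per cell cannot be told apart, and the part of fat cells in these values was not tested. Slow and oxidative fibre markers, whose fibres use these genes most, summed to 3263, 1382 and 560.1 CPM in the hydrogel libraries and to 4187, 1720 and 2743 CPM in the controls, with 9 of 9 negative. Skeletal muscle markers were positive in 9 of 10 (median 0.42) and fast fibre markers in 8 of 9 (0.39). With library size alone both medians were 0.19. Neutrophil markers were negative in 6 of 6 (median -2.07), fibroblast markers in 6 of 6 (-0.62), endothelial markers in 7 of 8 (-0.36) and macrophage markers in 4 of 8 (0.04). The part of these lists was not tested either.

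The mitochondrial cycle itself lay near control. The 15 enzymes and electron carriers summed to 2387, 1979 and 2471 CPM in the hydrogel libraries and to 1877, 2749 and 2524 CPM in the controls, with the hydrogel values inside the control range. The log2 fold changes ran from -0.30 for Acaa2, the mitochondrial thiolase, to 0.06 for Hadha, the alpha subunit of the trifunctional protein. Cpt1b, by contrast with Cpt1a, had 211, 228 and 331 CPM in the hydrogel libraries and 153, 234 and 224 CPM in the controls, a log2 fold change of 0.33 ± 0.54. The regulators had log2 fold changes of 0.64 ± 0.46 for Ppargc1a, 0.49 ± 0.39 for Ppard, 0.08 ± 0.35 for Esrra and 0.05 ± 0.67 for Ppara, all positive with TMM scaling. Library size alone shifted the median of all genes by -0.23, which is more than the values of Esrra and Ppara, and with it only Ppard and Ppargc1a were positive.

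**Figure D3:**
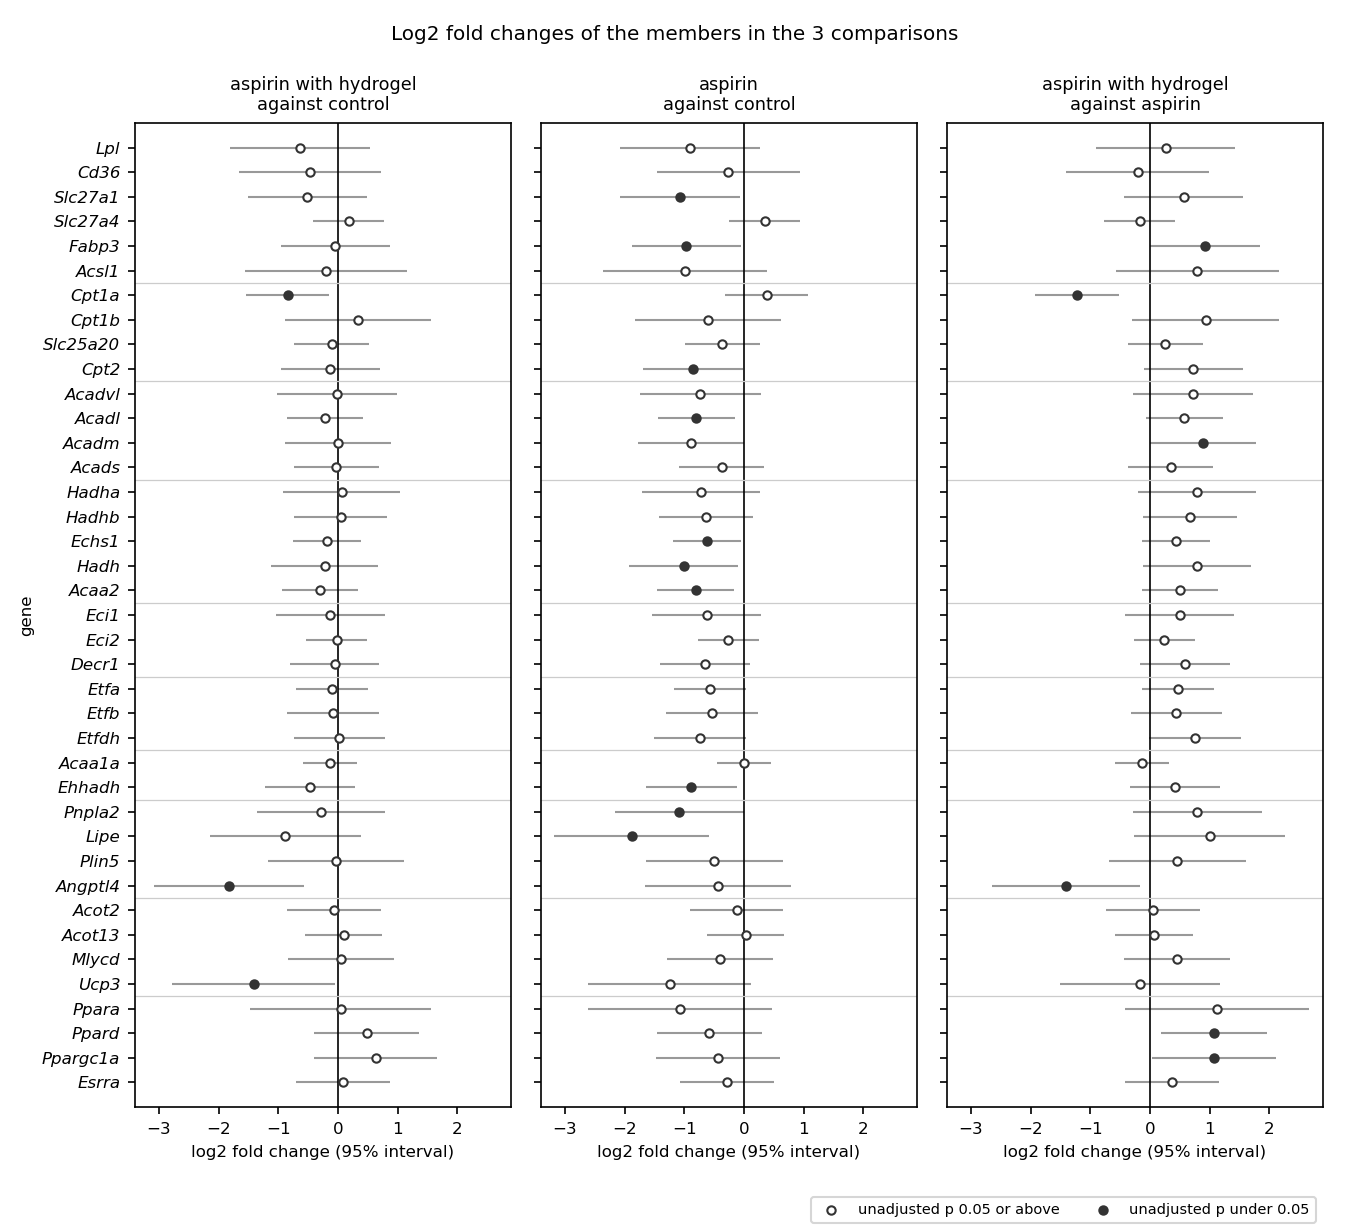
Log2 fold change of each of the 39 genes (points) with its 95% interval (lines) from the edgeR fit over all genes, in 3 panels for aspirin with hydrogel against control, aspirin against control and aspirin with hydrogel against aspirin; filled points have an unadjusted p under 0.05. Points lie left of 0 for 27, 35 and 6 of the 39 genes, and 0 passed the adjusted threshold in any panel.

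Aspirin was set against control to ask what the drug changed by itself. The median log2 fold change was negative in all 10 roles after aspirin, and the lowest gene was Lipe. All 15 mitochondrial enzymes and electron carriers had negative log2 fold changes, as had all 4 regulators. Slc27a4 (a fatty acid transport protein), Cpt1a, Acot13 (a thioesterase) and Acaa1a had positive ones. The differences did not pass the threshold over all genes, and their median was nearer 0 without Aspirin replicate 1.

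By count, 35 of 39 genes had a negative log2 fold change where 46.0% of all genes did, with a median of -0.63 against 0.05 over all genes. Without Aspirin replicate 1 the count was 34 and the median -0.37. Of the 39, 0 passed an adjusted p of 0.05 in edgeR (0.0% of all genes) and 0 in DESeq2 (0.553%). At an unadjusted p under 0.05 in edgeR, 10 were lower (3.39% of all genes) and 0 higher (3.09%). Every aspirin library lay below every control for 12 genes (5.44% of all genes) and above for 0 (5.54%). The 12 were Acaa2, Acadl, Acadm, Cpt2, Ehhadh, Etfa, Etfdh, Fabp3, Hadh, Lipe, Lpl and Ppard. For Ppard the highest aspirin and the lowest control value were almost equal, at 13.4227 and 13.424 CPM. For Lpl they were 1040 and 1045 CPM, and its log2 fold change was -0.90 ± 0.52 (unadjusted p = 0.116 in edgeR). The 10 lower genes became 4 without Aspirin replicate 1 (Acaa2, Acadl, Hadh and Lipe, with Slc27a4 then higher), 1 without Control replicate 2 (Lipe) and 4 without Control replicate 3 (Acaa2, Ehhadh, Hadh and Lipe). With the replicate number as a block they were 13.

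Lipe, which cleaves diglyceride (chromosome 7, 25379527 to 25398710, minus strand), had 32.8, 81.0 and 61.5 CPM in the aspirin libraries and 144, 335 and 166 CPM in the controls. No aspirin library reached the lowest control. The log2 fold change was -1.88 ± 0.57 (95% interval -3.18 to -0.58; unadjusted p = 0.00966, adjusted p = 0.753 in edgeR) and -1.60 without Aspirin replicate 1. Pnpla2 (adipose triglyceride lipase, which makes the first cut) had 94.9, 257 and 139.6 CPM in the aspirin libraries and 232, 491 and 318 CPM in the controls, with Aspirin replicate 2 above the lowest control. For Pnpla2 the log2 fold change was -1.08 ± 0.48 (unadjusted p = 0.0496, adjusted p = 0.753 in edgeR), and -0.81 without Aspirin replicate 1. The adipocyte markers summed to 1234, 2038 and 669.9 CPM in the aspirin libraries, against 2707, 4218 and 2814 CPM in the controls, and 8 of 8 had a negative log2 fold change, 4 of them with an unadjusted p under 0.05 (median -1.37, and -1.18 with 8 of 8 negative without Aspirin replicate 1). Their part in the lipase values was not tested. Plin5, which ties droplets to mitochondria, had 2.27, 6.65 and 4.60 CPM in the aspirin libraries and 3.40, 7.33 and 8.32 CPM in the controls, which overlapped.

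Among the uptake genes, Fabp3 (chromosome 4, 130308595 to 130315463, plus strand) had 44.4, 106 and 114 CPM in the aspirin libraries and 120.4, 209 and 186 CPM in the controls. All aspirin values lay below the controls, by a narrow margin for Aspirin replicate 3. The log2 fold change was -0.96 ± 0.40 (unadjusted p = 0.0410, adjusted p = 0.753 in edgeR), and -0.65 without Aspirin replicate 1. Slc27a1, the fatty acid transport protein of muscle and fat, had a log2 fold change of -1.08 ± 0.44 (unadjusted p = 0.0381, adjusted p = 0.753 in edgeR), and -0.99 without Aspirin replicate 1. Acsl1, which binds fatty acids to coenzyme A, had 41.3, 241 and 198 CPM in the aspirin libraries and 234, 279 and 439 CPM in the controls, and its log2 fold change was -0.99 ± 0.61, and -0.54 without Aspirin replicate 1. Cd36 had 432, 482 and 127 CPM in the aspirin libraries, against 344, 568 and 337 CPM in the controls, with no separation.

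In the carnitine shuttle, Cpt2, which hands fatty acids back to coenzyme A inside mitochondria, had 17.5, 34.9 and 52.0 CPM in the aspirin libraries and 52.6, 76.8 and 59.0 CPM in the controls. The highest aspirin value lay just under the lowest control. Its log2 fold change was -0.85 ± 0.37 (unadjusted p = 0.0465, adjusted p = 0.753 in edgeR), and -0.54 without Aspirin replicate 1. Slc25a20, the carrier that exchanges carnitine esters across the inner membrane, had a log2 fold change of -0.36 ± 0.28, and Cpt1b one of -0.60 ± 0.54. Without Aspirin replicate 1 they were -0.14 for Slc25a20 and -0.17 for Cpt1b.

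The mitochondrial enzymes stood lower together. Acadl (chromosome 1, 66830839 to 66863277, minus strand) had 96.8, 164 and 159 CPM in the aspirin libraries and 203, 263 and 263 CPM in the controls. The 2 groups stood well apart. The log2 fold change was -0.80 ± 0.28 (95% interval -1.44 to -0.15; unadjusted p = 0.0206, adjusted p = 0.753 in edgeR), and -0.59 without Aspirin replicate 1. Hadh, the short-chain hydroxyacyl-CoA dehydrogenase, had 44.3, 109 and 141 CPM in the aspirin libraries and 164, 246 and 182 CPM in the controls, also without overlap, with a log2 fold change of -1.01 ± 0.40 (unadjusted p = 0.0332, adjusted p = 0.753 in edgeR) and -0.67 without Aspirin replicate 1. Acaa2 had a log2 fold change of -0.81 ± 0.29 (unadjusted p = 0.0198 in edgeR) and the hydratase gene Echs1 one of -0.62 ± 0.25 (unadjusted p = 0.0370 in edgeR), each with an adjusted p of 0.753. Without Aspirin replicate 1 they were -0.60 for Acaa2 and -0.47 for Echs1. Acadvl, the very long-chain dehydrogenase, had 62.9, 186 and 219.9 CPM in the aspirin libraries and 189, 311 and 277 CPM in the controls, which overlapped. Eci1, Eci2 and Decr1, which prepare unsaturated fatty acids for the cycle, had log2 fold changes of -0.63 ± 0.40, -0.26 ± 0.23 and -0.65 ± 0.33. Etfa, Etfb and Etfdh, which pass the electrons on to the respiratory chain, had -0.57 ± 0.27, -0.53 ± 0.34 and -0.74 ± 0.34. Without Aspirin replicate 1 these 7 genes lay between -0.45 and -0.19.

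The peroxisomal pair differed. Ehhadh, a bifunctional enzyme of peroxisomal oxidation, had 5.04, 5.86 and 5.92 CPM in the aspirin libraries and 9.57, 13.7 and 7.71 CPM in the controls. The aspirin values were close together and all below the controls, with a log2 fold change of -0.88 ± 0.34 (unadjusted p = 0.0280, adjusted p = 0.753 in edgeR), and -0.82 without Aspirin replicate 1. Acaa1a had 42.5, 50.6 and 43.6 CPM in the aspirin libraries and 38.6, 49.2 and 48.2 CPM in the controls, a log2 fold change of 0.01.

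The whole cycle was also read within each library, where scaling cancels. The 15 enzymes and electron carriers summed to 813, 1658 and 1893 CPM in the aspirin libraries and to 1877, 2749 and 2524 CPM in the controls, and Aspirin replicate 3 lay just above Control replicate 1. Divided by the summed CPM of 22 nuclear respiratory chain and citrate cycle genes, the sum was 0.138 ± 0.0129 in aspirin with hydrogel, 0.161 ± 0.0518 in aspirin and 0.154 ± 0.0107 in control (SD, n = 3 each). The 3 groups overlapped in this ratio, and the highest value, 0.218, was that of Aspirin replicate 1. The sum was also divided by the summed CPM of the 10 skeletal muscle markers. That ratio was 0.0313, 0.0211 and 0.0165 in the hydrogel libraries and 0.0637, 0.0244 and 0.0155 in the aspirin libraries. In the controls it was 0.0387, 0.0359 and 0.0230. The groups overlapped again, and Aspirin replicate 1 was again the highest. Divided by the summed CPM of 13 mitochondrially encoded protein genes, the sum of the 15 was 0.0163, 0.0171 and 0.0149 in the hydrogel libraries, 0.0178, 0.0229 and 0.0192 in the aspirin libraries and 0.0230, 0.0176 and 0.0255 in the controls. Here all 3 hydrogel libraries lay below the other 6, the nearest being Control replicate 2. The divisor differed as well: the 13 genes were positive in 13 of 13 in aspirin with hydrogel against control (median 0.36). With library size alone 2 of the 13 were negative (median 0.16). Those 22 genes had a negative log2 fold change in 22 of 22 in aspirin against control (median -0.56), and in 19 of 22 without Aspirin replicate 1 (median -0.21).

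**Figure D4:**
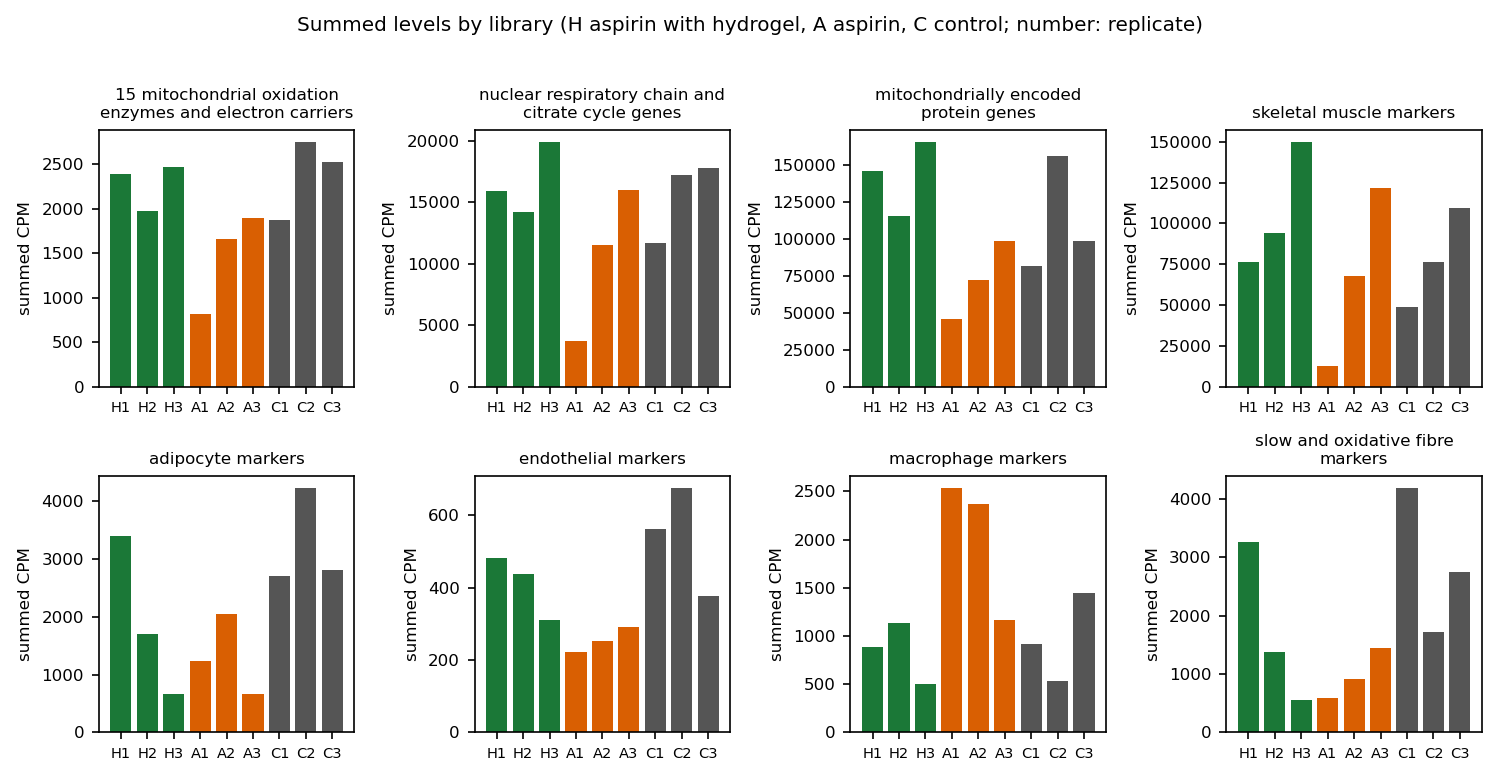
Summed CPM in each library (bars, H for aspirin with hydrogel, A for aspirin, C for control, number for replicate) of the 15 mitochondrial oxidation enzymes and electron carriers and of 7 other gene lists, each panel with its own axis from 0. The 15 genes, the nuclear respiratory genes and the muscle markers are all lowest in A1, and the macrophage markers are highest there.

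Mean levels of tissue markers differed between these groups too, and none of the markers passed the threshold over all genes. Skeletal muscle markers were negative in 10 of 10 (median log2 fold change -0.22), but in 1 of 10 without Aspirin replicate 1 (median 0.26). Macrophage markers summed to 2534, 2365 and 1162 CPM in the aspirin libraries and to 917, 529.6 and 1446 CPM in the controls, with 8 of 8 positive (median log2 fold change 1.17, and 0.89 without Aspirin replicate 1). Endothelial markers, which belong to cells where lipoprotein lipase acts, summed to 223, 252 and 291 CPM in the aspirin libraries and to 563, 674 and 377 CPM in the controls, with 8 of 8 negative, also without Aspirin replicate 1. Slow and oxidative fibre markers summed to 596, 912 and 1456 CPM in the aspirin libraries and to 4187, 1720 and 2743 CPM in the controls, with 9 of 9 negative (median -0.88), and 8 of 9 without Aspirin replicate 1. The part of these differences in the values of the fatty acid genes was not tested.

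Aspirin with hydrogel was set against aspirin to ask what the hydrogel added. Most of the 39 genes stood higher with the hydrogel, while Cpt1a and Angptl4 stood lower. With all libraries kept, the regulators Ppara, Ppard and Ppargc1a led the higher genes. None passed the threshold over all genes. These values share the aspirin libraries with the comparison of aspirin and control, and the hydrogel libraries with the first comparison. Tissue markers differed as well: skeletal muscle markers were positive in 10 of 10 (median log2 fold change 0.62), nuclear respiratory chain and citrate cycle genes in 22 of 22 (0.63) and mitochondrially encoded protein genes in 13 of 13 (0.98). Macrophage markers were negative in 8 of 8 (median -1.21) and neutrophil markers in 6 of 6 (-3.45). Without Aspirin replicate 1 the medians were 0.10 for skeletal muscle, 0.27 for nuclear respiratory genes, 0.72 for mitochondrially encoded genes, -0.83 for macrophages and -2.34 for neutrophils. The part of these lists in the values of the 39 genes was not tested.

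By count, 6 of 39 genes had a negative log2 fold change where 53.3% of all genes did: Acaa1a, Angptl4, Cd36, Cpt1a, Slc27a4 and Ucp3. The median was 0.50, against -0.05 over all genes, and 0.29 without Aspirin replicate 1, when 8 genes were negative. With library size alone 13 were negative and the median was 0.13, while the median of all genes moved by -0.46, to -0.51. In edgeR 0 of 39 passed an adjusted p of 0.05 (0.0% of all genes), and in DESeq2 0 of 39 (0.86%). At an unadjusted p under 0.05 in edgeR, 4 were higher (3.32% of all genes) and 2 lower (7.61%). Every hydrogel library lay above every aspirin library for 11 genes (7.46% of all genes): Acadl, Acadm, Etfa, Etfdh, Fabp3, Hadh, Hadha, Hadhb, Ppara, Ppard and Ppargc1a. It lay below for 1, Cpt1a (8.75%). The 4 higher genes (Acadm, Fabp3, Ppard and Ppargc1a) became 1 without Aspirin replicate 1 (Ppard), 12 without Aspirin replicate 3, 2 without Hydrogel replicate 2 or 3 and 0 without Hydrogel replicate 1. Of the 2 lower genes, Cpt1a was lower in each of the 6 fits that left out a library.

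Ppard, the PPAR form most active in muscle (chromosome 17, 28232700 to 28301474, plus strand), had 29.1, 17.5 and 19.6 CPM in the hydrogel libraries and 4.85, 13.4 and 13.3 CPM in the aspirin libraries, beside 19.0, 13.4 and 14.9 in the controls. Each hydrogel value lay above each aspirin value, and the controls ran from just above the highest aspirin value into the hydrogel range. The log2 fold change was 1.07 ± 0.39 (95% interval 0.18 to 1.96; unadjusted p = 0.0234, adjusted p = 0.453 in edgeR), and 0.73 without Aspirin replicate 1 (unadjusted p = 0.0285 in edgeR). Ppargc1a (chromosome 5, 51454250 to 51567726, minus strand) had 45.1, 44.2 and 53.2 CPM in the hydrogel libraries, 8.89, 25.7 and 33.3 in the aspirin libraries and 20.3, 44.6 and 26.9 in the controls. The hydrogel libraries were close together and above all aspirin libraries, and Control replicate 2 reached their level. For Ppargc1a the log2 fold change against aspirin was 1.07 ± 0.46 (unadjusted p = 0.0450, adjusted p = 0.454 in edgeR), and 0.69 without Aspirin replicate 1 (unadjusted p = 0.06055 in edgeR). Ppara, at 4.04, 3.78 and 4.005 CPM in the hydrogel libraries, was at 0.344, 1.38 and 3.72 CPM in the aspirin libraries. Aspirin replicate 3 lay just under the lowest hydrogel value. The log2 fold change of Ppara, 1.13, was the largest of the 4 regulators with all libraries kept. Aspirin replicate 1, at 0.344 CPM, had the lowest Ppara level of all libraries. The unadjusted p of Ppara in edgeR was not under 0.05, with or without Aspirin replicate 1. Esrra had 45.8, 42.9 and 55.1 CPM in the hydrogel libraries and 19.9, 41.6 and 49.7 CPM in the aspirin libraries, which overlapped.

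Of the enzymes and binding proteins, Fabp3 had 207, 122 and 171 CPM in the hydrogel libraries, against 44.4, 106 and 114 CPM in the aspirin libraries. For Fabp3 the log2 fold change was 0.92 ± 0.40 (unadjusted p = 0.0482, adjusted p = 0.454 in edgeR), and 0.61 without Aspirin replicate 1. Acadm, medium-chain acyl-CoA dehydrogenase, had 229, 189 and 272 CPM in the hydrogel libraries and 60.2, 151 and 161 CPM in the aspirin libraries. For Acadm it was 0.89 ± 0.39 (unadjusted p = 0.04997, adjusted p = 0.454 in edgeR), and 0.57 without Aspirin replicate 1. For both genes the lowest hydrogel value lay above the highest aspirin value.

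Cpt1a stood the other way from the enzymes. Its log2 fold change in aspirin with hydrogel against aspirin was -1.22 ± 0.31 (95% interval -1.92 to -0.52; unadjusted p = 0.00348, adjusted p = 0.453 in edgeR), and -0.94 without Aspirin replicate 1 (unadjusted p = 0.0109). Angptl4, whose groups overlapped, had one of -1.40 ± 0.55 (unadjusted p = 0.0311, adjusted p = 0.453 in edgeR), and -1.27 without that library (unadjusted p = 0.0651).

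Since Cpt1a and Cpt1b catalyse the same step, their balance was read within each library, from FPKM. Cpt1b made up 96.7%, 96.3% and 98.1% of their sum in the hydrogel libraries, 62.7%, 89.3% and 94.8% in the aspirin libraries and 89.6%, 94.7% and 96.01% in the controls. The hydrogel libraries were the 3 highest of all 9. The share was lowest in Aspirin replicate 1 and highest in Hydrogel replicate 3. Those libraries also had the lowest and the highest sum of skeletal muscle markers, 12764 and 149705 CPM. In bulk tissue the share can differ with the muscle content of a sample, and that part was not tested. The mean share was 97.01% ± 0.946 in aspirin with hydrogel, 82.2% ± 17.2 in aspirin and 93.4% ± 3.40 in control (SD, n = 3 each). The differences were 3.60 percentage points for aspirin with hydrogel against control (exact two-sided permutation p = 0.10), -11.2 for aspirin against control (exact permutation p = 0.30) and 14.8 for aspirin with hydrogel against aspirin (exact permutation p = 0.10). The smallest p that 3 against 3 allows is 0.10, and the test takes no account of replicate numbers. The aspirin and control groups overlapped, with Aspirin replicate 3, at 94.8%, above Control replicates 1 and 2. Between same-numbered samples, which the labels do not call pairs, the share was lower in aspirin than in control in 3 of 3. Since no pairing is established, that count is a description only. The last 2 differences were -1.39 and 4.98 without Aspirin replicate 1. The first was 1.67 without Control replicate 1, and the second -17.4 without Aspirin replicate 3.

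Hadha and Hadhb, the subunits of the trifunctional protein, lie head to head on chromosome 5. Their RefSeq start sites are 273 bases apart, and the promoter windows of both share 228 bases (30155003 to 30155230). Hadha stood at 383, 345 and 430.1 CPM in the hydrogel libraries, 96.7, 242 and 334 in the aspirin libraries and 294, 440 and 376 in the controls. Hadhb stood at 199, 158 and 219 CPM in the hydrogel libraries, 70.2, 144 and 147 in the aspirin libraries and 136, 225 and 197 in the controls. The ratio of their FPKM was 1.53 ± 0.104 in aspirin with hydrogel, 1.34 ± 0.344 in aspirin and 1.51 ± 0.101 in control (SD, n = 3 each). The groups overlapped in this ratio. The aspirin group held both the lowest ratio of all libraries, 1.04 in replicate 1, and the highest, 1.71 in replicate 3.

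A further 5 genes had smaller differences between groups. Slc27a4 ranged from 12.3 to 25.5 CPM over the 9 libraries, Acot13 from 29.5 to 51.6, Mlycd (malonyl-CoA decarboxylase, which removes the inhibitor of CPT1) from 19.9 to 65.9, and Acot2 from 6.17 to 12.04. Acads, the short-chain dehydrogenase, ranged from 30.8 to 79.0 CPM. Their log2 fold changes lay between -0.40 and 0.45 in the 3 comparisons, and 0 had an unadjusted p under 0.05, although Slc27a4 did in aspirin against control without Aspirin replicate 1 (0.54, unadjusted p = 0.0497 in edgeR).

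Other genes of the pathway were read from 7 further lists. In aspirin with hydrogel against control, 10 of 11 tested PPAR target genes outside the 39 were negative (52.9% of all genes), with a median of -0.90. In aspirin against control 7 of 11 were (46.0% of all genes), with a median of -0.79, and 8 of 12 without Aspirin replicate 1 (median -0.50). Pdk4, the kinase that holds back glucose oxidation, had 136, 125 and 327 CPM in the hydrogel libraries, 295, 707 and 89.1 in the aspirin libraries and 381, 1138 and 899 in the controls, with all hydrogel values below all controls. In aspirin against control Pdk4 had a log2 fold change of -1.15 ± 0.75 (unadjusted p = 0.159, adjusted p = 0.774 in edgeR), and -1.02 without Aspirin replicate 1. Its log2 fold change was -2.04 ± 0.77 in aspirin with hydrogel against control (unadjusted p = 0.0263, adjusted p = 0.987 in edgeR). In the same comparison the peroxisomal lyase gene Hacl1 was at -0.54 ± 0.22, Dgat1, which completes triglyceride, at -1.01 ± 0.42, and the mitochondrial carrier gene Slc25a34 at -1.23 ± 0.46, with unadjusted p-values from 0.0258 to 0.0385. Of 20 other regulators, 12 were positive and 8 negative, and of 17 peroxisomal genes 3 were positive and 14 negative.

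In aspirin against control, all 20 tested genes of other mitochondrial acyl-CoA enzymes were negative (median -0.55), and 17 without Aspirin replicate 1 (median -0.27), among them Oxct1, the enzyme of ketone body use, at -0.96 ± 0.37 (-0.64 without Aspirin replicate 1). In aspirin with hydrogel against aspirin all 20 were positive (median 0.51), and 15 without that library (median 0.27), led by Ivd, of leucine breakdown, at 1.15 ± 0.37 (0.84 without that library). Esrrg, a relative of Esrra, had 12.5, 12.1 and 18.9 CPM in the hydrogel libraries and 3.03, 4.71 and 8.37 CPM in the aspirin libraries, beside 10.1, 11.2 and 10.1 in the controls. For Esrrg the log2 fold change against aspirin was 1.43 ± 0.37 (unadjusted p = 0.00388, adjusted p = 0.453 in edgeR), and 1.16 without Aspirin replicate 1.

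Of 15 other lipolysis and droplet genes, 9 were negative in aspirin against control (median -0.42), where 46.0% of all genes were. At an unadjusted p under 0.05 in edgeR 4 were lower and 2 higher (3.39% and 3.09% of all genes). Plin1, also an adipocyte marker, was at -1.91 ± 0.66 (unadjusted p = 0.0182, adjusted p = 0.753 in edgeR), and -1.50 without Aspirin replicate 1. The 2 higher genes, Hilpda and Plin2, had their highest mean level in the aspirin group. Hilpda, a lipid droplet protein that inhibits adipose triglyceride lipase and responds to hypoxia, had 2.35, 1.45 and 1.64 CPM in the hydrogel libraries, 11.2, 8.03 and 3.83 in the aspirin libraries and 2.29, 2.99 and 2.07 in the controls. Each aspirin library lay above every other library. For Hilpda the log2 fold change was 1.65 ± 0.43 in aspirin against control (unadjusted p = 0.00384, adjusted p = 0.753 in edgeR) and -2.08 ± 0.43 in aspirin with hydrogel against aspirin (unadjusted p = 0.000983, adjusted p = 0.453), and without Aspirin replicate 1 these were 1.27 and -1.71. Plin2, which coats droplets in many cell types, macrophages included, had 80.2, 56.5 and 33.9 CPM in the hydrogel libraries, 249, 288 and 74.6 in the aspirin libraries and 75.6, 76.8 and 89.8 in the controls. Aspirin replicate 3 lay at the control level. The macrophage markers named above were highest in Aspirin replicates 1 and 2, as Plin2 was, and their part in its level was not tested.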

How the data were processed

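RNA from leg muscles of 9 mice was made into libraries with a SMARTER mRNA-Seq kit from 1 µg of total RNA, per the labels' protocols. The authors deposited raw read counts per gene and FPKM values in a table of all samples, and its columns were matched to samples by name. The build is mm10, per the submitters' processing notes, and which aligner, counter and strand setting were used is not given in the sources used here. FPKM as deposited were used for levels between genes and ratios within a library. Counts were tested with edgeR 4.0.16 (R 4.3.3, quasi-likelihood, robust, TMM scaling, filterByExpr with a minimum count of 10 and a minimum total of 15), all 9 libraries in 1 fit, with Benjamini-Hochberg adjustment over 18259 genes and a threshold of 0.05. DESeq2 1.42.0, DESeq2's size factors in edgeR, library size alone, no filter, only the 2 groups compared, log2 FPKM with a pseudocount of 0.1, a replicate block and leaving out each library were alternatives. The Cpt1b share was tested by exact permutation (scipy 1.17.1). The fitting code was tested on simulated data.

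Total counts were 32197791 to 48170537 per library, and 3 counts, the limit set by counting alone, equal 0.0554 to 0.100 CPM. The common biological coefficient of variation was 0.503. No 2 libraries agreed within sampling noise. The labels do not say that replicate numbers pair mice between groups. Deviations of same-numbered aspirin and control samples correlated at 0.615, 0.133 and 0.264 over 14572 genes, which does not establish a pairing. Members with an unadjusted p under 0.05 are given in full; genes of other pathway lists were named from the 2 of smallest p per list and comparison, and Pdk4 always. The 39 genes and all lists were chosen with earlier results of these data known.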

Additional observations from a re-analysis of the deposited data

How the results depend on the processing

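With aspirin and hydrogel against control, DESeq2 called 18 genes where edgeR called 0. Leaving out each replicate put the members with a negative log2 fold change at 15 to 35 of 39 and their median at -0.24 to 0.029, and the difference in Cpt1b share was 7.11 percentage points from counts. In aspirin against control DESeq2 called 101 genes. In aspirin with hydrogel against aspirin DESeq2 called 157 genes and the replicate block 1, leaving out each replicate gave 0 to 2 genes and 3 to 8 negative members, and library size alone and log2 FPKM each gave 13 negative members. The cause was not tested. With library size alone the median over all genes shifted by -0.23 (aspirin with hydrogel against control), 0.23 (aspirin against control) and -0.46 (aspirin with hydrogel against aspirin). Same-numbered hydrogel samples did not all deviate with control samples (correlations of 0.26, -0.24 and 0.35) or aspirin samples (0.29, -0.44 and 0.48). The labels name no pairing in any comparison. With the replicate block the members' medians were -0.03, -0.70 and 0.59. With 3 mice per group and a biological coefficient of variation of 0.503, 95% intervals of single genes were wide, and a p above the threshold does not show that levels were alike.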
